A study of Mus musculus with 12 samples.

Results

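Disease-associated microglia markers are a set of 9 genes that microglia, the macrophages of the brain parenchyma, switch on around amyloid, dying cells and myelin debris. The members Cst7, Clec7a, Itgax, Lgals3, Spp1, Gpnmb, Lpl, Cd9 and Igf1 were taken by gene symbol from a table of 15584 genes, and all 9 were among the 13759 genes tested. Levels are FPKM, a measure scaled to transcript length and to the fragments mapped, in RNA of mouse corpus callosum, the large white matter tract between the hemispheres. There were 4 groups of 3 libraries: AHR CKO mice given cuprizone (AHR CKO CPZ), AHR CKO controls (AHR CKO Ctrl), WT mice given cuprizone (WT CPZ) and WT controls (WT Ctrl). AHR CKO mice lack the aryl hydrocarbon receptor, a ligand-activated transcription factor, in microglia. Cuprizone is a copper chelator that kills oligodendrocytes and so strips myelin from this tract. The sources used here do not name the Cre line, the deleted exons, the age or sex of the mice, the dose or duration of cuprizone, or whether a library is 1 animal. P-values therefore measure the spread between these libraries, which may be technical.

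The full disease-associated state depends, in mouse models of amyloid, demyelination and ageing, on the lipid-sensing receptor Trem2 and its partner Tyrobp. In that state homeostatic genes such as P2ry12 and Cx3cr1 are low, and genes of phagocytosis, lysosomes and lipid handling are high. The members play different roles. Clec7a (dectin-1) is a receptor for beta-glucans, Itgax encodes the integrin chain CD11c, Cd9 is a tetraspanin and Gpnmb a membrane glycoprotein of lipid-laden phagocytes. Cst7 (cystatin F) inhibits lysosomal cysteine proteases, Lgals3 (galectin-3) binds beta-galactosides on damaged membranes, Spp1 (osteopontin) is a secreted integrin ligand, Igf1 is a growth factor that acts on oligodendrocytes, and Lpl (lipoprotein lipase) releases fatty acids from lipoproteins.

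FPKM summed to between 447156 and 519470 per library, and an FPKM table does not record how many fragments stand behind a value. Ahr was listed at 1.48 to 2.57 FPKM in AHR CKO CPZ, 1.41 to 2.07 in AHR CKO Ctrl, 1.73 to 2.01 in WT CPZ and 1.48 to 2.22 in WT Ctrl. These ranges overlap, and they do not check the labels, since other cells of the tissue keep the gene and the deleted exons are unnamed. Cx3cr1, the fractalkine receptor of microglia, was lower in every AHR CKO library than in every WT library of the same treatment. It was listed at 1.16, 22.7 and 29.6 FPKM in AHR CKO CPZ replicates 1, 2 and 3 and at 1.05, 9.60 and 0.801 in AHR CKO Ctrl, against 69.4, 49.4 and 58.7 in WT CPZ and 24.9, 24.4 and 22.6 in WT Ctrl. The 3 AHR CKO libraries near 1 FPKM stand apart from the other 3 of that genotype. They are AHR CKO CPZ replicate 1 and AHR CKO Ctrl replicates 1 and 3, and the members' calls are also given without each of them.

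Promoter sequence was read from RefSeq (GRCm38.p6), from 250 bases before to 50 bases after the annotated start, for the 8 members in that table. Lpl is named here without a window. Where the table held several windows of a gene (Spp1 and Clec7a), the most upstream was used. The 1 window of Igf1 lies at a start inside the gene, whose RefSeq span begins at 87858265 on chromosome 10, so its matches are not at the upstream end of the gene. The windows of Cst7 and Itgax are shown because these genes differed between genotypes under cuprizone. That of Lgals3 is shown because it was the only member called higher in AHR CKO CPZ relative to the microglial genes. Spp1, Gpnmb, Lpl, Cd9 and Igf1 also lay above 0 on that scale, where the median of all genes moved by 0.47. Capitals mark the core of the AHR response element, GCGTG or its reverse complement CACGC, and the AP-1 site TGANTCA. The windows are chr2:150570165-150570464 for Cst7, chr7:128129300-128129599 for Itgax and chr14:47373610-47373909 for Lgals3, all on the plus strand. The genes lie on chromosomes 2 (Cst7), 5 (Spp1), 6 (Gpnmb, Cd9 and Clec7a), 7 (Itgax), 8 (Lpl), 10 (Igf1) and 14 (Lgals3).
Cst7: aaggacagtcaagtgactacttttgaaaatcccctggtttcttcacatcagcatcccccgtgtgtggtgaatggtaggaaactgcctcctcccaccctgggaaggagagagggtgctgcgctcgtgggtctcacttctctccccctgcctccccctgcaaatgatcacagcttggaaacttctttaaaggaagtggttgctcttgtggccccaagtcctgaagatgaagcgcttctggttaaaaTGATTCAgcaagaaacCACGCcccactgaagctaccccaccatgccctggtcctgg
Itgax: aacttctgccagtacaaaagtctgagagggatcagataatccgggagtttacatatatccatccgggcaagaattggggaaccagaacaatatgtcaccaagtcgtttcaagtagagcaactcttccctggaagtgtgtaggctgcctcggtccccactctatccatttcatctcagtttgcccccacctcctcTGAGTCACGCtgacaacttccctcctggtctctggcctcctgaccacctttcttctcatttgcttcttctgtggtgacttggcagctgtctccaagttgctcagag
Lgals3: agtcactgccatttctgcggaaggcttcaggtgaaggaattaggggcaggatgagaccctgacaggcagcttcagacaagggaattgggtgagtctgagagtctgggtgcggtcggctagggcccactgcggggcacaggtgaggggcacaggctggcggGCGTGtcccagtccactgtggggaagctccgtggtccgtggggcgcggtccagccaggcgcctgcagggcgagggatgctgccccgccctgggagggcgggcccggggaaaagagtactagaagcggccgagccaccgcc
The AHR core was present in 5 of the 8 windows (Cst7, Itgax, Lgals3, Cd9 and Igf1), and in 32.4% of all 32851 promoter windows. The AP-1 letters were present in 4 of 8 (Cst7, Itgax, Gpnmb and Igf1), against 7.81% of all windows. Cst7, Itgax and Igf1 held both, as did 1.78% of all windows. In Itgax the AP-1 letters, 56 bases upstream of the start, and the AHR core, 51 bases upstream, overlap each other. In Cst7 the AP-1 letters begin 6 bases upstream of the start and the AHR core lies 11 bases into the transcript. The PU.1 core GAGGAAG was found in Spp1 and Igf1 and in 13.6% of all windows, and the E-box CACGTG and M-box TCATGTG in no member, against 7.15% and 3.77% of all windows. Both strands were searched. These are matches of letters, not sites shown to be bound.

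Cuprizone raised all 9 members in AHR CKO tissue and all 9 in WT tissue. In each genotype every cuprizone library lay above every control library for every member. Of all tested genes, 7.22% were called higher with cuprizone in AHR CKO and 9.08% in WT (limma, Benjamini-Hochberg adjusted p under 0.05), and 14.3% in AHR CKO and 15.8% in WT lay higher with no overlap. The median log2 change of the members was 3.46 in AHR CKO and 3.94 in WT, and over all tested genes it was -0.01 in AHR CKO and -0.04 in WT. Itgax and Gpnmb were below 1 FPKM in all 6 control libraries, and Cst7 and Clec7a in 5 of 6. These 4 genes passed the filter (FPKM of at least 1 in at least 3 libraries) through their cuprizone libraries, so the full count describes the set and is not evidence for it. Without AHR CKO CPZ replicate 1 all 9 were still called in AHR CKO, and without AHR CKO Ctrl replicate 1 or 3 the count was 8. The genes called in either direction in AHR CKO numbered 1403, and 840 without AHR CKO Ctrl replicate 1 and 872 without AHR CKO Ctrl replicate 2. In bulk tissue, more cells of a type and more RNA per cell cannot be told apart.

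**Figure D1:**
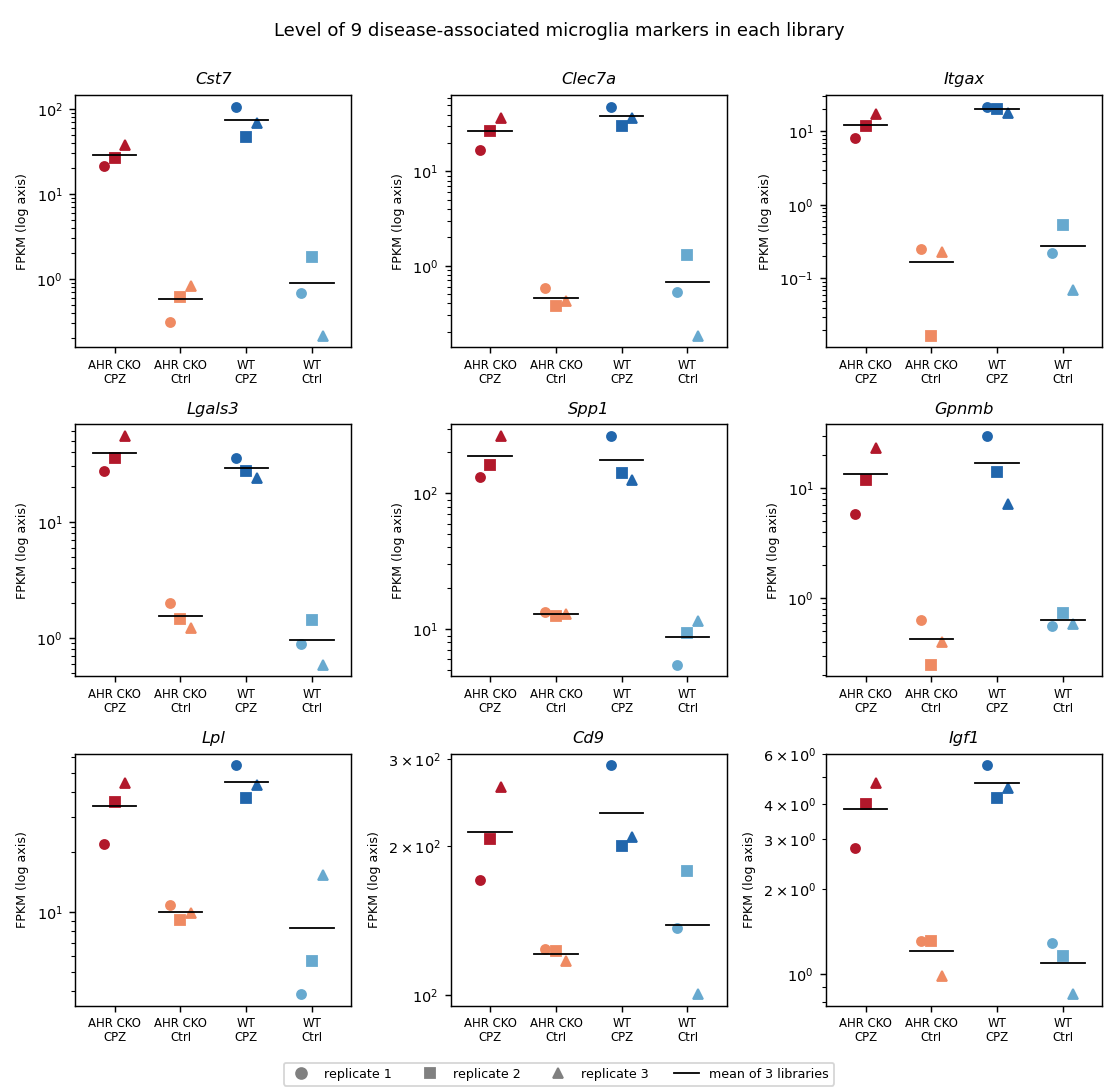
FPKM (log axis) of each member in every library, with the mean of 3 libraries as a bar and the replicate number as the symbol. Every cuprizone library lies above every control library of its genotype, from 18.0 FPKM against at most 0.526 for Itgax in WT to 200.3 against at most 178 for Cd9 in WT.

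Among the surface receptors, Clec7a stood at 17.0, 27.0 and 36.7 FPKM in AHR CKO CPZ replicates 1, 2 and 3, against 0.585, 0.371 and 0.426 in AHR CKO Ctrl. In WT it was listed at 48.7, 30.3 and 36.9 FPKM with cuprizone, against 0.531, 1.30 and 0.182 in controls. The gene was close to silent in all 6 controls and its log2 change was 4.19 ± 0.28 (SE, adjusted p = 5.5e-06, limma) in AHR CKO and 4.60 ± 0.28 (adjusted p = 2.24e-06) in WT. Itgax stood at 8.02, 11.9 and 17.1 FPKM in AHR CKO CPZ, against 0.254, 0.0167 and 0.227 in AHR CKO Ctrl. It was listed at 21.8, 20.1 and 18.0 FPKM in WT CPZ, against 0.225, 0.526 and 0.0693 in WT Ctrl. The WT CPZ libraries were close together for Itgax and the AHR CKO CPZ libraries spread more widely, with a coefficient of variation of 36.8% in AHR CKO CPZ and 9.43% in WT CPZ. Its log2 change was 3.46 ± 0.22 (adjusted p = 5.5e-06) in AHR CKO and 4.05 ± 0.22 (adjusted p = 1.42e-06) in WT. The ratio of its mean FPKM, cuprizone to control, was 74.3 in AHR CKO and 73.1 in WT. With controls this low, the log2 change of FPKM + 1 follows the cuprizone level more than this ratio.

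Gpnmb varied most among the members in both cuprizone groups. It stood at 5.80, 11.8 and 23.0 FPKM in AHR CKO CPZ, against 0.631, 0.247 and 0.399 in AHR CKO Ctrl, and at 29.9, 14.1 and 7.16 FPKM in WT CPZ, against 0.563, 0.740 and 0.581 in WT Ctrl. Cuprizone libraries of 1 group differed severalfold (coefficient of variation 64.3% in AHR CKO CPZ and 68.3% in WT CPZ), yet all lay far above the controls. The log2 change was 3.17 ± 0.45 (adjusted p = 0.000655) in AHR CKO and 3.26 ± 0.45 (adjusted p = 0.000303) in WT. Cd9 behaved otherwise, being abundant before cuprizone. It stood at 171, 207 and 264 FPKM in AHR CKO CPZ, against 124, 123 and 117 in AHR CKO Ctrl, and at 291, 200.3 and 209 FPKM in WT CPZ, against 137, 178 and 100.4 in WT Ctrl. Its log2 change was the smallest of the 9, at 0.79 ± 0.21 (adjusted p = 0.0313) in AHR CKO and 0.77 ± 0.21 (adjusted p = 0.0243) in WT.

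Oligodendrocytes and astrocytes also make Cd9, as background. The summed level of 13 oligodendrocyte genes was 4263 to 5309 FPKM in AHR CKO CPZ against 10013 to 10723 in AHR CKO Ctrl, and 3211 to 3888 in WT CPZ against 10418 to 18924 in WT Ctrl. Among the WT Ctrl libraries, replicate 2 had the highest and replicate 3 the lowest value of both Cd9 and the oligodendrocyte sum, whose part in the Cd9 values was not tested. The summed level of 10 astrocyte genes was 2465 to 3410 FPKM in AHR CKO CPZ against 1419 to 1464 in AHR CKO Ctrl, and 2834 to 3586 in WT CPZ against 1410 to 1607 in WT Ctrl. Cuprizone raised 6 of these 10 genes in AHR CKO and 7 in WT (limma), against 7.22% and 9.08% of all tested genes. The astrocyte sum had the same order of libraries as the members in AHR CKO CPZ. It was 2465, 3024 and 3410 FPKM in replicates 1, 2 and 3 there, and was highest in replicate 1 of WT CPZ. Its part in the Cd9 values was likewise not tested. The Cd9 call was lost in AHR CKO without any of AHR CKO CPZ replicates 2 and 3 or AHR CKO Ctrl replicates 1, 2 and 3 (largest adjusted p = 0.115, limma), and in WT without WT CPZ replicate 1 or WT Ctrl replicate 1 or 3 (largest adjusted p = 0.103). It was also lost in AHR CKO with the replicate number as a block (adjusted p = 0.0621), after rescaling to a common total (adjusted p = 0.0537) and after quantile normalization (adjusted p = 0.0736), and in WT when only the WT libraries were fitted (adjusted p = 0.0667).

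Of the secreted and lysosomal members, Cst7 moved most. It stood at 21.5, 26.6 and 37.9 FPKM in AHR CKO CPZ, against 0.312, 0.607 and 0.830 in AHR CKO Ctrl. In WT it was listed at 107, 46.4 and 68.7 FPKM with cuprizone, against 0.686, 1.80 and 0.216 in controls. All WT CPZ libraries lay above all AHR CKO CPZ libraries. Its log2 change ranked 2 of 13759 from the top in AHR CKO, at 4.20 ± 0.33 (adjusted p = 1.34e-05), and 1 of 13759 in WT, at 5.31 ± 0.33 (adjusted p = 2.44e-06). Clec7a ranked 3 in AHR CKO and 2 in WT.

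Lgals3 stood at 27.2, 35.6 and 55.0 FPKM in AHR CKO CPZ, against 1.98, 1.46 and 1.21 in AHR CKO Ctrl, and at 35.4, 27.6 and 24.0 FPKM in WT CPZ, against 0.881, 1.41 and 0.583 in WT Ctrl. Its mean under cuprizone was above that of WT in AHR CKO, unlike Cst7, Clec7a and Itgax, but the libraries of the 2 groups overlapped. The log2 change was 3.93 ± 0.24 (adjusted p = 5.5e-06) in AHR CKO and 3.94 ± 0.24 (adjusted p = 2.24e-06) in WT. Spp1 stood at 133, 163 and 265 FPKM in AHR CKO CPZ, against 13.4, 12.5 and 13.01 in AHR CKO Ctrl, and at 263, 141 and 126 FPKM in WT CPZ, against 5.46, 9.40 and 11.4 in WT Ctrl. With FPKM scaled to length, Spp1 and Cd9 were the most abundant members in every cuprizone library. The log2 change of Spp1 was 3.69 ± 0.31 (adjusted p = 1.81e-05) in AHR CKO and 4.16 ± 0.31 (adjusted p = 5.26e-06) in WT.

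Igf1 was low throughout. It stood at 2.79, 4.0 and 4.75 FPKM in AHR CKO CPZ, against 1.31, 1.32 and 0.987 in AHR CKO Ctrl, and at 5.50, 4.20 and 4.55 FPKM in WT CPZ, against 1.29, 1.16 and 0.850 in WT Ctrl. Its log2 change was 1.12 ± 0.16 (adjusted p = 0.000722) in AHR CKO and 1.45 ± 0.16 (adjusted p = 6.5e-05) in WT. Lpl, the lipase, stood at 21.8, 35.9 and 44.3 FPKM in AHR CKO CPZ, against 10.8, 9.14 and 9.92 in AHR CKO Ctrl, and at 54.6, 37.6 and 43.3 FPKM in WT CPZ, against 3.86, 5.71 and 15.3 in WT Ctrl. Its log2 change was 1.62 ± 0.36 (adjusted p = 0.0131) in AHR CKO and 2.49 ± 0.36 (adjusted p = 0.00044) in WT. The AHR CKO call was lost without AHR CKO CPZ replicate 3 or AHR CKO Ctrl replicate 2 (largest adjusted p = 0.0597, limma).

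WT Ctrl replicate 3 had the highest Lpl and Spp1 of the 3 WT controls and the lowest Cst7, Clec7a, Itgax, Lgals3, Cd9 and Igf1. The summed level of 7 striatal neuron genes, a list added after the values were seen, was 2495 FPKM in that library, against 582 and 904 in WT Ctrl replicates 1 and 2. It was 778 to 1540 FPKM in AHR CKO CPZ, 1196 to 1894 in AHR CKO Ctrl and 406 to 819 in WT CPZ. Its part in the Lpl and Spp1 levels was not tested.

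**Figure D2:**
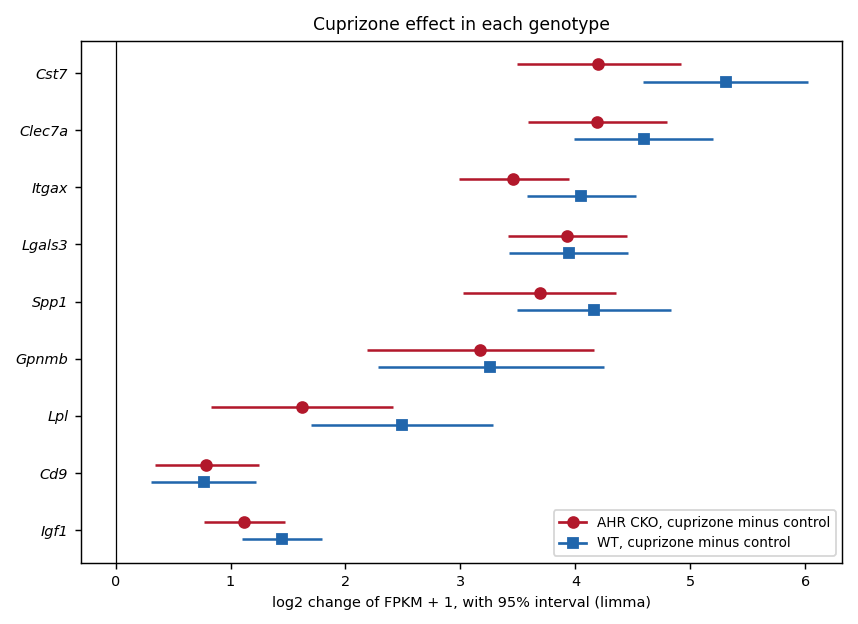
Log2 change of FPKM + 1 with cuprizone for each member, in AHR CKO (circles) and WT (squares), with 95% intervals from limma. All 18 values lie above 0, from 0.77 for Cd9 in WT to 5.31 for Cst7 in WT.

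Levels were also set against 16 genes found across microglial states (Aif1, Csf1r, Itgam, Spi1, C1qa and others). These 16 genes summed to 1354 to 2144 FPKM in AHR CKO CPZ and 434 to 470 in AHR CKO Ctrl, and to 1968 to 2868 in WT CPZ and 420 to 493 in WT Ctrl. Cuprizone raised 15 of the 16 in AHR CKO and 16 of 16 in WT, against 7.22% and 9.08% of all tested genes. The median log2 changes of the list were 1.78 in AHR CKO and 2.35 in WT. When every library was shifted to the same mean log2 level of this list, which moved the median of all genes by -1.75 in AHR CKO and -2.21 in WT, 6 members stayed higher with cuprizone in each genotype. Cst7 was higher by 2.46 in AHR CKO (adjusted p = 1.98e-08, limma) and by 3.09 in WT (adjusted p = 1.05e-10). Clec7a was higher by 2.45 in AHR CKO and 2.38 in WT, Itgax by 1.72 in AHR CKO and 1.84 in WT, and Lgals3 by 2.19 in AHR CKO and 1.73 in WT. Spp1 was higher by 1.94 in AHR CKO and 1.95 in WT, and Gpnmb by 1.43 in AHR CKO and 1.05 in WT.

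Igf1 and Cd9 changed direction on this scale, and Lpl lost its call. Igf1 fell by 0.63 in AHR CKO (adjusted p = 0.00594, limma) and by 0.76 in WT (adjusted p = 0.00122). It lay near 1 FPKM in controls, where log2(FPKM + 1) understates a rise. The ratio of its mean FPKM, cuprizone to control, was 3.19 in AHR CKO and 4.32 in WT. The size of the Igf1 fall thus depends on the added 1, and this scaling was not run with a smaller pseudocount. Cd9 fell by 0.96 in AHR CKO (adjusted p = 0.000566) and by 1.45 in WT (adjusted p = 3.05e-06). The log2 change of Lpl was -0.12 in AHR CKO (adjusted p = 0.683) and 0.28 in WT (adjusted p = 0.359). On this scale 13466 genes were called lower and 65 higher in AHR CKO, and 13587 lower and 32 higher in WT, so lower calls were the rule for genes of the tissue at large.

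**Figure D3:**
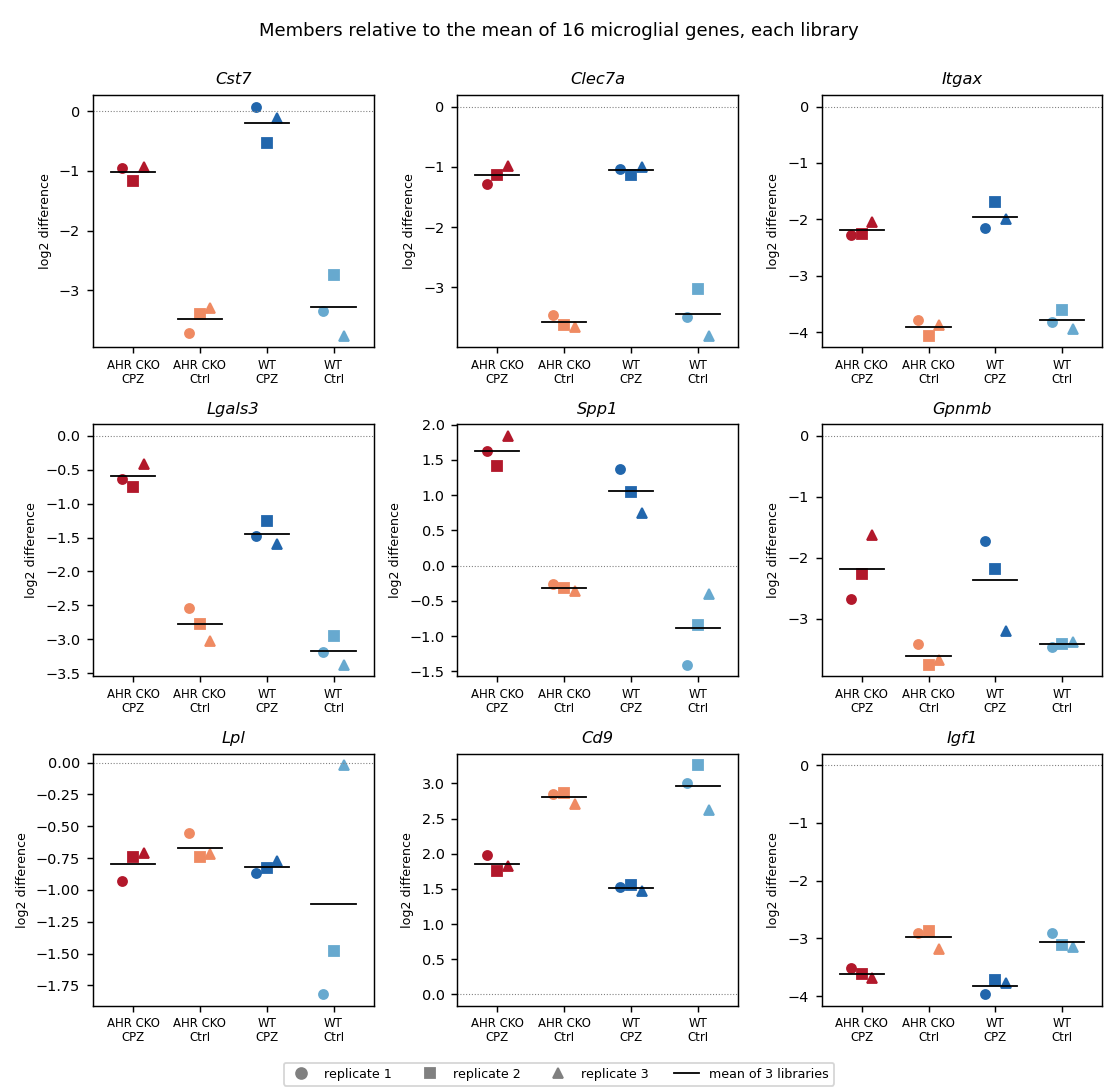
Log2(FPKM + 1) of each member minus the mean log2(FPKM + 1) of the 16 microglial genes in the same library, with the mean of 3 libraries as a bar. For Cst7 the AHR CKO CPZ libraries lie between -1.16 and -0.93, below the WT CPZ libraries at -0.53 to 0.08, while for Lgals3 they lie between -0.75 and -0.41, above the WT CPZ libraries at -1.60 to -1.26.

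Under cuprizone, Cst7 and Itgax were lower in AHR CKO than in WT, and the other 7 members did not pass the test. The share of all tested genes called in this comparison was 20.0%, with 10.8% lower, so 2 of 9 members is near the background. That share was itself 5.65% without AHR CKO CPZ replicate 1, 10.7% without AHR CKO CPZ replicate 2, 8.34% without WT CPZ replicate 1 and 8.73% without WT CPZ replicate 3, and 0 members passed in each of these 4 cases. The median log2 difference of the members was -0.29, and 0 over all tested genes. Cst7 averaged 28.7 ± 8.39 FPKM in AHR CKO CPZ and 73.9 ± 30.5 in WT CPZ (SD, n = 3 each), a log2 difference of -1.29 ± 0.33 (SE, 95% interval -2.01 to -0.58, adjusted p = 0.0207, limma). Itgax averaged 12.3 ± 4.54 FPKM in AHR CKO CPZ and 20.0 ± 1.89 in WT CPZ, a log2 difference of -0.71 ± 0.22 (95% interval -1.18 to -0.23, adjusted p = 0.0397). For both genes the libraries of the 2 groups did not overlap, and 20.0% of all tested genes lay lower in the same way.

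These calls rest on few libraries. Cst7 lost its call without AHR CKO CPZ replicate 1 or 2 or WT CPZ replicate 1 or 3 (largest adjusted p = 0.091, limma), with log2 differences between -1.58 and -0.99 over all 12 omissions. Itgax lost its call without AHR CKO CPZ replicate 1 or 2, AHR CKO Ctrl replicate 1, any WT CPZ library or WT Ctrl replicate 1 (largest adjusted p = 0.155), with log2 differences between -0.96 and -0.45. Neither passed with a pseudocount of 0.1 (adjusted p = 0.0998 for Cst7 and 0.28 for Itgax), and Itgax did not pass with the replicate number as a block (adjusted p = 0.0694) or when only the cuprizone libraries were fitted (adjusted p = 0.0819).

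The differences of the other members spanned 0 within their 95% intervals, which are wide. Clec7a averaged 26.9 ± 9.87 FPKM in AHR CKO CPZ and 38.6 ± 9.31 in WT CPZ (log2 difference -0.54, interval -1.15 to 0.06, adjusted p = 0.174, limma). Lgals3 averaged 39.3 ± 14.3 FPKM in AHR CKO CPZ and 29.0 ± 5.84 in WT CPZ (log2 difference 0.38, interval -0.13 to 0.90, adjusted p = 0.257). Spp1 averaged 187 ± 69.4 FPKM in AHR CKO CPZ and 177 ± 74.8 in WT CPZ (log2 difference 0.10, interval -0.57 to 0.77), a value that turned negative under 2 other scalings. For Gpnmb the log2 difference was -0.29 with an interval of -1.27 to 0.70, for Lpl -0.44 with -1.23 to 0.35, for Cd9 -0.13 with -0.58 to 0.33 and for Igf1 -0.26 with -0.61 to 0.09.

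**Figure D4:**
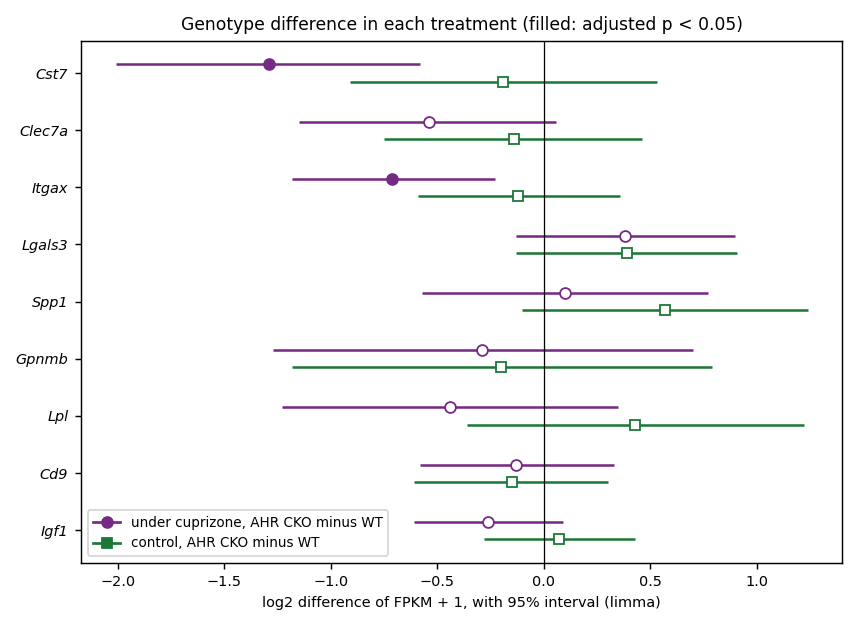
Log2 difference of FPKM + 1, AHR CKO minus WT, with 95% intervals from limma, under cuprizone (circles) and in controls (squares), with filled symbols for an adjusted p under 0.05. Only Cst7 at -1.29 and Itgax at -0.71, both under cuprizone, are filled among these 18 values.

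In AHR CKO CPZ all 9 members had their lowest value in replicate 1 and their highest in replicate 3. In WT CPZ all 9 were highest in replicate 1. The 16 microglial genes summed to 1354, 1786 and 2144 FPKM in AHR CKO CPZ replicates 1, 2 and 3, and to 2868, 1968 and 2106 in WT CPZ. In AHR CKO CPZ the members had the same order of libraries as this sum, and in WT CPZ both were highest in replicate 1. AHR CKO CPZ replicate 1 was also the library of that group with Cx3cr1 at 1.16 FPKM. Without that library neither Cst7 nor Itgax passed, with a log2 difference of -1.11 for Cst7 (adjusted p = 0.091, limma) and -0.45 for Itgax (adjusted p = 0.155), and without WT CPZ replicate 1 Cst7 lay at -0.99 (adjusted p = 0.0749).

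Relative to the 16 microglial genes, Cst7 was still lower in AHR CKO CPZ than in WT CPZ. It lay at -0.95, -1.16 and -0.93 log2 units from the list mean in AHR CKO CPZ, against 0.08, -0.53 and -0.12 in WT CPZ, and the log2 difference was -0.83 (adjusted p = 0.0212, limma). Lgals3 lay at -0.63, -0.75 and -0.41 in AHR CKO CPZ, against -1.48, -1.26 and -1.60 in WT CPZ, and was higher in AHR CKO CPZ by 0.85 (adjusted p = 0.012). Itgax no longer passed (log2 difference -0.24, adjusted p = 0.349) and Clec7a lay at -0.08 (adjusted p = 0.775). Spp1 lay at 0.56 (adjusted p = 0.0858). Gpnmb, Lpl, Cd9 and Igf1 had differences of 0.18, 0.03, 0.34 and 0.21, each of the opposite sign to the unscaled value. This scaling moved the median difference of all genes to 0.47, with 3848 genes called higher and 75 lower. Since it moves every gene of a library by the same amount, it left the order of the members unchanged, and the Lgals3 call is one of many higher calls made on this scale.

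**Figure D5:**
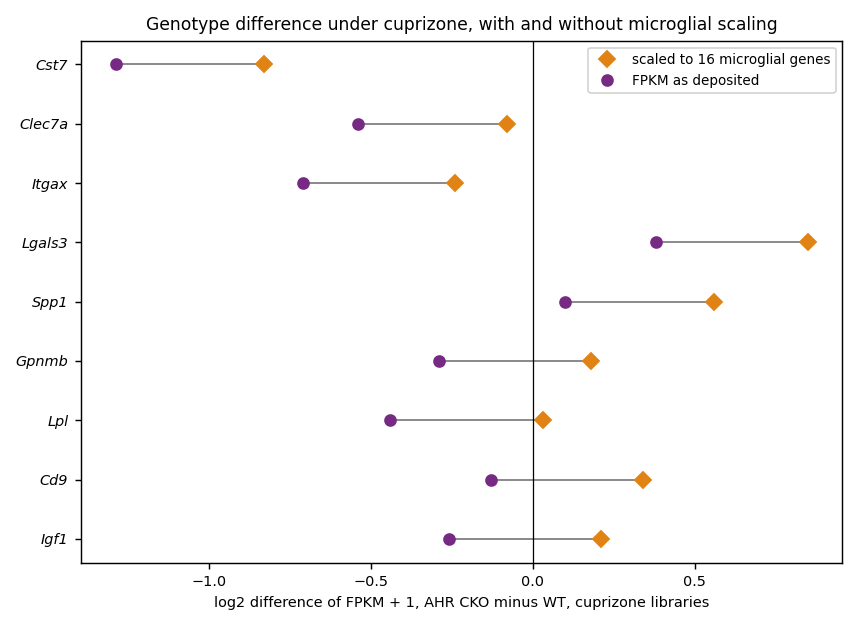
Log2 difference of FPKM + 1, AHR CKO minus WT, in the cuprizone libraries, for FPKM as deposited (circles) and after scaling to the 16 microglial genes (diamonds). Scaling moves Cst7 from -1.29 to -0.83, Itgax from -0.71 to -0.24 and Lgals3 from 0.38 to 0.85.

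In control tissue no member passed the test between genotypes (0 of 9 by limma and 0 at an unadjusted p under 0.05), where 6.19% of all tested genes were called. With sample quality weights 2 members and 32.5% of all tested genes were called. The 851 genes behind the 6.19% became 4 without AHR CKO Ctrl replicate 3, 7 without AHR CKO Ctrl replicate 2, 8 without WT Ctrl replicate 1, 12 without WT Ctrl replicate 2, 179 without WT CPZ replicate 3, 259 without AHR CKO CPZ replicate 2 and 1428 without AHR CKO CPZ replicate 1, with 0 members in each case. With the replicate number as a block it was 51. Spp1 was the member whose libraries did not overlap, at 12.5 to 13.4 FPKM in AHR CKO Ctrl against 5.46 to 11.4 in WT Ctrl (13.5% of all tested genes lay higher with no overlap). Its log2 difference was 0.57 ± 0.31 (SE, 95% interval -0.10 to 1.24, adjusted p = 0.247, limma). Cst7 averaged 0.583 ± 0.260 FPKM in AHR CKO Ctrl and 0.901 ± 0.814 in WT Ctrl (SD, n = 3 each), and Itgax averaged 0.166 ± 0.130 FPKM in AHR CKO Ctrl and 0.273 ± 0.232 in WT Ctrl. At levels under 1 FPKM the log2(FPKM + 1) scale leaves little room for a difference, and the interval for Cst7 ran from -0.91 to 0.53. For Cst7, Clec7a, Itgax and Cd9 the sign of the difference turned without WT Ctrl replicate 2.

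The test of whether the cuprizone effect differed between genotypes passed for no member (0 of 9 by limma and 1 at an unadjusted p under 0.05), and for 0.0363% of all tested genes. With sample quality weights it passed for 2 members and for 18.6% of all tested genes. Over the omission of each library, it passed for 0 members and for between 0 and 103 genes in all. Cst7 had an interaction of -1.10 ± 0.47 on the log2 scale (SE, 95% interval -2.12 to -0.09, unadjusted p = 0.0357, adjusted p = 0.48). Lpl had -0.87 ± 0.51 (adjusted p = 0.645) and Itgax -0.59 ± 0.31 (adjusted p = 0.578). The other 6 lay between -0.47 for Spp1 and 0.03 for Cd9. A smaller cuprizone effect on Cst7 or Itgax in AHR CKO was therefore not shown by this test. For Itgax the ratio of mean FPKM, cuprizone to control, was 74.3 in AHR CKO and 73.1 in WT. For Cst7 it was 49.2 in AHR CKO and 82.1 in WT. The added 1 weighs on both interaction values, since most controls were under 1 FPKM.

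The rest of the disease-associated programme was followed through 28 further genes. Among them Ms4a7 is also in the border macrophage list and Tyrobp in the microglial list used for scaling. Of the 28 genes 26 were tested. Cuprizone raised 20 and lowered 0 in AHR CKO (median log2 change 1.35), and raised 17 and lowered 1 in WT (median 1.64). Of all tested genes 7.22% were called higher in AHR CKO and 9.08% in WT. Trem2, the receptor of the programme, rose by 2.33 ± 0.15 in AHR CKO (log2, SE, adjusted p = 5.5e-06, limma) and by 2.82 ± 0.15 in WT (adjusted p = 1.42e-06). The chemokine gene Ccl6 rose by 2.59 ± 0.21 in AHR CKO and 3.83 ± 0.21 in WT, and Ccl3, another, by 3.86 ± 0.26 in AHR CKO and 3.72 ± 0.26 in WT. Cd52, a surface glycoprotein of leukocytes, rose by 3.41 ± 0.29 in AHR CKO and 4.24 ± 0.29 in WT. Under cuprizone 1 of the 26 was higher and 3 were lower in AHR CKO than in WT, with a median difference of -0.18. This is 15.4% of the list, against 20.0% of all tested genes, so the list did not stand above the background. The count of lower genes was 1 without AHR CKO CPZ replicate 1 or WT CPZ replicate 1, 2 without AHR CKO CPZ replicate 2 or WT CPZ replicate 3, and 6 without AHR CKO CPZ replicate 3. The fatty acid-binding protein gene Fabp5 was higher by 0.52 (adjusted p = 0.00688), and Ccl6, the adhesion gene Cadm1 and the lysosomal protease gene Ctsd had log2 differences of -1.18 (adjusted p = 0.00717), -0.51 (adjusted p = 0.0176) and -0.67 (adjusted p = 0.0242). Ccl6 and Fabp5 kept their calls without AHR CKO CPZ replicate 1 and without WT CPZ replicate 1, and Cadm1 and Ctsd did not. In controls 0 of the 26 passed, and 1 (Ank, lower) without AHR CKO CPZ replicate 1.

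A list of 16 homeostatic microglia genes shares members such as Csf1r with the microglial list. Of these 16, cuprizone raised 5 and lowered 1 in AHR CKO, and raised 8 and lowered 0 in WT. Without AHR CKO CPZ replicate 1 it raised 8 and lowered 1 in AHR CKO. Of all tested genes 10.2% were called in either direction in AHR CKO, 8.74% without that library, and 16.9% in WT. Fcrls, an Fc receptor-like gene of microglia, rose by 1.51 ± 0.19 in AHR CKO (log2, SE, adjusted p = 0.000317, limma) and by 2.35 ± 0.19 in WT (adjusted p = 1e-05). Slc2a5, the gene lowered in AHR CKO, averaged 1.10 FPKM in AHR CKO CPZ and 2.12 in AHR CKO Ctrl. P2ry12 averaged 15.1 FPKM in AHR CKO CPZ and 20.2 in AHR CKO Ctrl, and 21.8 in WT CPZ and 24.5 in WT Ctrl. Tmem119 averaged 16.1 FPKM in AHR CKO CPZ and 15.9 in AHR CKO Ctrl, and 17.8 in WT CPZ and 17.5 in WT Ctrl. Neither P2ry12 nor Tmem119 was called with cuprizone. Under cuprizone 6 of the 16 (37.5%) were lower in AHR CKO than in WT and 0 were higher, with a median log2 difference of -0.50. Of all tested genes 20.0% were called in this comparison and 10.8% were lower. The count of lower genes was 3 without AHR CKO CPZ replicate 1 or WT CPZ replicate 1, 4 without AHR CKO CPZ replicate 2 or WT CPZ replicate 3, 9 without WT CPZ replicate 2 and 10 without AHR CKO CPZ replicate 3. The share of all tested genes called in either direction moved as well. It ran from 5.65% without AHR CKO CPZ replicate 1 to 24% without AHR CKO CPZ replicate 3. Gpr34, a lysophospholipid receptor, had -0.92 ± 0.18 (adjusted p = 0.00954), Fcrls -0.95 ± 0.19 (adjusted p = 0.00993), the engulfment receptor gene Mertk -0.80 ± 0.17 (adjusted p = 0.0119) and the microglial transcription factor gene Sall1 -0.66 ± 0.15 (adjusted p = 0.0131). Against 10.8% of all tested genes, 4 of the 16 microglial genes used for scaling (25%) were lower under cuprizone in AHR CKO and 0 higher. None was called without AHR CKO CPZ replicate 1 or 2 or WT CPZ replicate 1 or 3, 6 were lower without WT CPZ replicate 2 and 9 without AHR CKO CPZ replicate 3. Among them Itgam had a log2 difference of -0.76, Ptprc of -0.78 and Csf1r of -0.71.

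Other cells could bring the same transcripts. Of 8 border macrophage genes, 7 were in the table and 2 were tested, and the 7 summed to 4.27 to 5.08 FPKM in AHR CKO CPZ, 3.56 to 4.71 in AHR CKO Ctrl, 3.32 to 6.51 in WT CPZ and 1.89 to 3.75 in WT Ctrl, with 4 of the 7 under 1 FPKM in every library. Of the 2 tested, Ms4a7 rose with cuprizone in AHR CKO (log2 change 1.06, adjusted p = 0.0131, limma) and did not pass in WT (0.57, adjusted p = 0.127), and Pf4 passed in neither. Ms4a7 is also among the further disease-associated genes counted above. Of 9 monocyte and neutrophil genes 4 were in the table, summing to 9.29 to 21.3 FPKM in AHR CKO CPZ, 4.97 to 6.77 in AHR CKO Ctrl, 11.4 to 18.7 in WT CPZ and 5.79 to 6.85 in WT Ctrl. Of the 2 tested, Fn1, which other cells also make, rose with cuprizone in AHR CKO (log2 change 1.01, adjusted p = 0.0322, limma) and in WT (1.07, adjusted p = 0.0153), and Ly6c2 passed in neither. Of 12 dendritic cell and lymphocyte genes 4 were in the table, summing to 7.83 to 15.1 FPKM in AHR CKO CPZ, 12.2 to 14.9 in AHR CKO Ctrl, 6.42 to 9.12 in WT CPZ and 6.19 to 22.4 in WT Ctrl. Itgax is a marker of dendritic cells as well. Of the 3 tested genes of this list none was called with cuprizone in either genotype (limma). Under cuprizone Zbtb46, a transcription factor gene on this list, was lower in AHR CKO than in WT (log2 difference -0.49, adjusted p = 0.0354, limma). Xcr1, Cd209a and Ccr7 of the list were not in the table, and which cells brought Zbtb46 was not tested. Cd4 (1.18, adjusted p = 0.103) and Flt3 (0.08, adjusted p = 0.713) lay higher in AHR CKO and did not pass. Of all tested genes 10.8% were called lower in this comparison. Cd8a, the untested gene of the list, averaged 0.433 FPKM in AHR CKO CPZ and 0.0459 in AHR CKO Ctrl, and 0.341 in WT CPZ and 0.0988 in WT Ctrl. Cd4 had the highest mean of the list in every group and so was the largest part of its sum. Cd3e and Cd3g were not in the table. The sum was 6.19, 8.12 and 22.4 FPKM in WT Ctrl replicates 1, 2 and 3, and 15.1, 14.8 and 7.83 in AHR CKO CPZ. In both groups this was the order of the striatal sum, while in AHR CKO Ctrl and WT CPZ the orders differed in part. The part of striatal tissue in the Cd4 values was not tested. The monocyte and neutrophil sum had the same order of libraries as the members in AHR CKO CPZ, at 9.29, 11.1 and 21.3 FPKM in replicates 1, 2 and 3, and was highest in replicate 1 of WT CPZ. Fn1 made up most of that sum. In AHR CKO CPZ it averaged 11.6 FPKM, against 1.57 for Ly6c2, 0.611 for S100a9 and 0.174 for Ccr2. The choroid plexus list summed to 1013 to 3751 FPKM in AHR CKO CPZ, 417 to 3599 in AHR CKO Ctrl, 57.7 to 2998 in WT CPZ and 43.9 to 157 in WT Ctrl. It was highest in replicate 1 of both cuprizone groups, where the members were lowest in AHR CKO and highest in WT. Ttr made up most of it, averaging 2489 FPKM in AHR CKO CPZ and 1310 in WT CPZ. A list of 10 endothelial and fibroblast genes summed to 130 to 188 FPKM in AHR CKO CPZ and 165 to 194 in AHR CKO Ctrl. It summed to 137 to 175 FPKM in WT CPZ and 124 to 148 in WT Ctrl. Against WT, 2 of the 10 were higher in AHR CKO controls (limma), where 6.19% of all tested genes were called. Under cuprizone 2 were higher and 1 lower, against 20.0% of all tested genes called. The part of any of these other cells in the members' levels was not tested.

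The pattern of the members over the 12 libraries was most like that of Ctss, Itgb2, C1qa, Ctsz, Myo1f, C1qc, Tlr2, Lyz2, C1qb and Adcy7. The likeness measure was the root mean square distance between standardized log2 values and the standardized mean of the members, which was 0.08 to 0.10 for these genes and 1.41 for the median gene. Ctss, a lysosomal protease, averaged 398 ± 132 FPKM in AHR CKO CPZ and 84.0 ± 6.46 in AHR CKO Ctrl, and 525 ± 136 in WT CPZ and 87.7 ± 6.76 in WT Ctrl (SD, n = 3 each). Among the members, Clec7a lay nearest to their mean (0.09), Itgax at 0.12, Igf1 at 0.14, Cst7 at 0.16, Spp1 and Gpnmb at 0.17 and Lgals3 at 0.18. Lpl at 0.37 and Cd9 at 0.39 lay farthest. All members except Clec7a thus lay farther from their own mean than the nearest genes named above, so the pattern was not particular to the members. Of those nearest genes, C1qa, C1qb and C1qc are in the microglial list used for scaling. Ctsz and Lyz2 are among the further disease-associated genes. The 12 libraries share 2 treatments and 2 genotypes, so the distance is a description of this design.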

How the data were processed

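FPKM values for the 12 libraries stand side by side in 1 table that the authors deposited, per the file headers. RNA came from a Qiagen RNeasy extraction and a SMARTER library kit for mRNA, per the labels' protocols. The submitters' processing notes name the genome build GRCm38 (mm10). No aligner, quantifier, annotation or filter is named in the sources used here. Groups and replicate numbers came from the sample titles, and 0 columns were left unmapped.

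A gene was tested where at least 3 libraries reached 1 FPKM, which held for 13759 genes. The fit on log2(FPKM + 1), a scale that understates changes of low genes, had the 4 groups as terms (limma 3.58.1, R 4.3.3, eBayes with trend). P-values are two-sided, with Benjamini-Hochberg adjustment over all tested genes in each of 5 comparisons and a threshold of 0.05. Means ± SD are of FPKM. No counts were rebuilt, so no count test was run, and the depth behind each value is unknown. The code was tested on simulated data. The members and gene lists were chosen with earlier results of these data known. Every member is named, as are up to 4 genes of smallest adjusted p in the other microglial lists and the 10 genes of nearest pattern. Alternatives covered the pseudocount, the filter, scaling, sample weights, the variance trend, a replicate block, the groups fitted and each library left out. The striatal list and the counts of the 3 microglial lists with each library left out were added after seeing the data.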

Additional observations from a re-analysis of the deposited data

How the results depend on the processing

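The count of members past the threshold with cuprizone was 8 or 9 in AHR CKO and 8 or 9 in WT under 11 other settings (6 higher and 2 lower in each when scaled to the microglial list), and 7 to 9 and 8 to 9 with each library left out. Of all tested genes, 7.61% to 98.3% were called in AHR CKO and 13.7% to 99% in WT under these settings. With each library left out these shares were 6.11% to 11.3% in AHR CKO and 11.6% to 17.7% in WT. The count between genotypes under cuprizone moved most. It was 2, where 20.0% of all tested genes were called. With a pseudocount of 0.1 it became 0 (19.7% of all tested genes), and when only the 2 groups were fitted 1 (7.78%). With sample quality weights it was 4, with 1 higher and 3 lower (58.4%). With the replicate number as a block it was 1 (13.1%), and with each library left out 0 to 2 (5.65% to 24%). After removal of the group means, same-numbered libraries of different groups correlated at r of -0.34 to 0.25 over 18 pairs, 3 of them above 0.1. Differently numbered libraries were not set beside them, so this cannot settle whether the numbers pair the libraries. The sources used here do not say what the numbers mark. Sample quality weights gave 2 members in controls (Spp1 and Lpl) and 2 for the interaction (Cst7 and Lpl), and called 8036 of 13759 genes under cuprizone. The cause was not tested.

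Signs turned in these cases. Scaled to the microglial list, the cuprizone change was -0.96 for Cd9, -0.63 for Igf1 and -0.12 for Lpl in AHR CKO and -1.45 for Cd9 and -0.76 for Igf1 in WT, the genotype difference under cuprizone was 0.18 for Gpnmb, 0.03 for Lpl, 0.34 for Cd9 and 0.21 for Igf1, and the interaction was 0.06 for Clec7a, 0.46 for Lgals3, 0.38 for Gpnmb and 0.13 for Igf1. Spp1 under cuprizone was -0.03 after rescaling to a common total and -0.08 after quantile normalization, and the Cd9 interaction was -0.05 and -0.10. With weights, Gpnmb was 0.51 under cuprizone, and the interaction was 0.20 for Lgals3 and 0.80 for Gpnmb. With a pseudocount of 0.1 the Gpnmb interaction was 0.22.

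With each library left out, the genotype difference under cuprizone ran from -0.76 to 0.20 for Gpnmb, -0.29 to 0.04 for Cd9 and -0.19 to 0.42 for Spp1. In controls it ran from -0.47 to 0.13 for Cst7, -0.37 to 0.12 for Clec7a, -0.24 to 0.02 for Itgax, -0.36 to 0.05 for Cd9 and -0.02 to 0.15 for Igf1. The interaction ran from -0.27 to 0.22 for Lgals3, -0.17 to 0.24 for Cd9 and -0.56 to 0.40 for Gpnmb. With 3 libraries a group, members under 1 FPKM in controls give little information on genotype there.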
